A study of Mus musculus with 18 samples.

Results

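miR-203 and miR-205 are a pair of mature microRNAs best known from the basal and stratified layers of epithelium. They were chosen by name, as the rows for the main arm of each hairpin, and are 2 of the 583 mature miRNA rows measured in mammary tumours of the AKXD panel. The study sequenced small RNA from 18 tumour pools, 1 for each of the recombinant inbred strains 2, 3, 7, 9, 10, 11, 13, 14, 16, 18, 20, 21, 22, 23, 24, 25, 27 and 28. AKXD strains descend from AKR/J and DBA/2J mice and are inbred, so that each is fixed for a parental allele at most loci. Every pool came from F1 offspring of an AKXD strain and FVB/N-TgN(MMTV-PyVT)634Mul, so all groups share an FVB/N genome copy and the polyoma virus middle T oncogene. The mouse mammary tumour virus promoter drives that oncogene mainly in mammary epithelium. Tumour RNA from mice of a strain was pooled before sequencing, and neither the ages nor the number of mice in a pool is given in the sources used here. Each strain therefore has n = 1, no pair of strains has a replicate check, and the spread over the 18 pools holds strain, pool and library differences together.

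A microRNA is cut from a hairpin, loaded into an Argonaute protein, and guides it to messenger RNAs that pair with its seed, bases 2 to 8. In skin, miR-203 appears as keratinocytes leave the basal layer and represses the transcription factor p63, which maintains basal cells. miR-205 is abundant in basal keratinocytes and in basal and progenitor cells of the mammary gland, and together with the miR-200 family it represses the EMT factors Zeb1 and Zeb2. Tumours driven by middle T are mostly of luminal type, in which basal and myoepithelial cells are a minor part.

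The mature sequences are shown because they tell the members apart from each other and from other miRNAs, with the seed in capitals (RefSeq, GRCm38.p6). miR-203-3p is taken as the row miR-203, miR-203-5p as the row miR-203*, and miR-205-5p as the row miR-205.
miR-203-3p: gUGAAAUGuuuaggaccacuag
miR-203-5p: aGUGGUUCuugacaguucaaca
miR-205-5p: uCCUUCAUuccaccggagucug
The seeds UGAAAUG and CCUUCAU each belong to 1 of the 1679 mature miRNA names in the RefSeq table, so neither member shares its seed with another miRNA there. The hairpins follow, with the mature member in capitals.
Mir203: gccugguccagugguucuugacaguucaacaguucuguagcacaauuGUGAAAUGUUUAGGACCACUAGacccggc
Mir205: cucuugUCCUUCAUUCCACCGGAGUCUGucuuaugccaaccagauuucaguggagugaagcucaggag
The Mir203 hairpin (chr12:112130880-112130955, plus strand) lies outside annotated genes, 3321 bases from Aspg and 15253 bases from Kif26a. The Mir205 hairpin (chr1:193507463-193507530, minus strand) lies within an exon of the non-coding gene 4631405K08Rik, named Mir205hg in RefSeq (chr1:193507238-193510174, minus strand, in GENCODE M21). The genes are on different chromosomes, so no common primary transcript joins the members. These coordinates are those of GRCm38, whereas the submitters' processing notes name mm9.

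Library depth lay between 4358322 reads (strain 7) and 14946471 reads (strain 27). Levels are given as counts per 1000000 reads (CPM), scaled by a trimmed-mean factor for each library, from 0.671 in strain 14 to 1.67 in strain 28. A first principal component with 27.6% of the variance had strains 10, 13, 14 and 20 at its low end. Results are also given without these 4 and strain 28, whose factor was highest. No pair of libraries was identical, and Spearman rho between libraries was 0.893 to 0.985.

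miR-203 was the more abundant member in every pool. It averaged 2718 ± 2063 CPM (SD, n = 18) and ranked 41st in abundance among the 281 miRNAs that averaged 10 CPM or more, against 574 ± 204 CPM (SD, n = 18) and rank 79 for miR-205. Both mature forms have 22 bases, but how efficiently each sequence is captured was not measured. The spread of log2(CPM + 1) over strains was 0.78 for miR-203 (rank 45 of 281) and 0.48 for miR-205 (rank 121), beside a median of 0.45 over the 281 (quartiles 0.34 and 0.61). Without strain 2, the spread of miR-203 was 0.60.

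miR-203 was highest in strain 2, at 9934 CPM, which is 2.27 times the next strain and 5.10 times the panel median of 1949.7 CPM. Next came strains 23 (4378 CPM), 21 (4247 CPM), 16 (4129 CPM) and 18 (3070.2 CPM). A middle range held strains 24 (2401 CPM), 28 (2207 CPM), 10 (2165 CPM), 11 (1980.1 CPM), 3 (1919 CPM), 7 (1892 CPM), 9 (1768 CPM) and 25 (1718 CPM). The lowest levels were in strains 14 (1653 CPM), 13 (1592 CPM), 20 (1517 CPM), 27 (1363 CPM) and 22 (993 CPM). From strain 24 to strain 27 in this order no step between neighbours was over 1.11-fold. The largest step was that below strain 2 (2.27-fold), followed by the step from strain 27 to strain 22 (1.37-fold). The highest level was 10.0 times the lowest, and 4.41 times without strain 2. Counting intervals of neighbours in the order overlapped in 2 of 17 steps, between strains 28 and 10 and between strains 3 and 7. Those intervals (Wilson, 95%) cover counting error only, at most 2.23% of a value to either side, and PCR copies are not told apart.

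miR-205 was highest in strain 21, at 1069 CPM, followed by strains 16 (917 CPM), 23 (841 CPM), 2 (718 CPM) and 18 (659 CPM). Strains 11 (614 CPM), 22 (574 CPM), 10 (568 CPM), 28 (537 CPM), 7 (521 CPM), 24 (491 CPM), 9 (480.3 CPM) and 20 (473 CPM) formed the middle of the order. The lowest levels were in strains 14 (434 CPM), 3 (424 CPM), 27 (368 CPM), 13 (344 CPM) and 25 (302 CPM). The range was narrower than that of miR-203, with the highest level 3.54 times the lowest and no strain far from its neighbour. Neighbours overlapped within counting error in 6 of 17 steps, all of them between strains 22 and 3 in this order. Strain 25 was lowest for miR-205 but only 13th for miR-203, and strain 22 was lowest for miR-203 but 7th for miR-205.

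**Figure D1:**
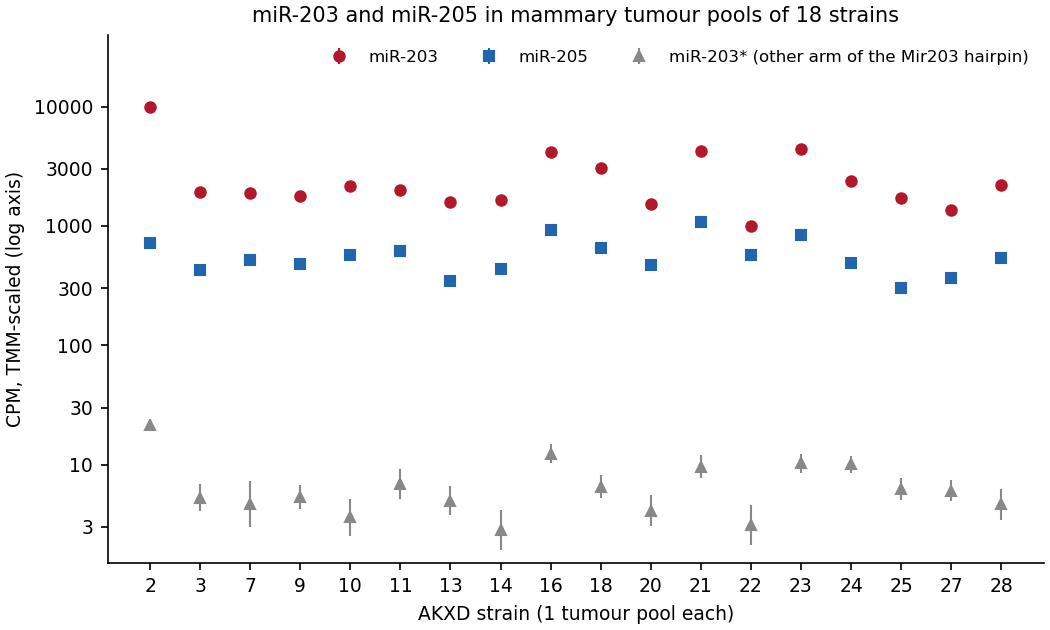
CPM (log axis) of miR-203, miR-205 and miR-203* in each of the 18 strain pools, with 95% counting intervals that are hidden by most points. Strain 2 stands at 9934 CPM for miR-203, while miR-205 lies between 302 and 1069 CPM throughout.

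As shares of all miRNA reads, which need no scaling factor, miR-203 took 1.04% in strain 2 and 0.111% in strain 14, and miR-205 took 0.121% in strain 21 and 0.0265% in strain 13. The 5 strains highest in CPM, strains 2, 16, 18, 21 and 23, were the same for both members. By share of reads, 4 strains were common to both sets of 5, and with strain 28 added the 6 highest strains were the same for both. In bulk tumour RNA, fewer cells of a type and less RNA per cell cannot be told apart, so these levels do not say which of the 2 varied.

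The members varied together over the panel. Spearman rho between them was 0.750 (permutation p = 0.00061) and Pearson r of log2(CPM + 1) was 0.695 (permutation p = 0.00138, n = 18). Over the 3 relations among miR-203, miR-205 and miR-203* the adjusted p was 0.00118 for rho and 0.00207 for r. Because the pair was picked with this relation known, the p-values describe these libraries and are no independent support. Without strains 2 and 23, the farthest from the median of miR-203, rho was 0.671 (permutation p = 0.00565) and r was 0.731 (permutation p = 0.00173). The Spearman coefficient was 0.786 without strains 10, 13, 14, 20 and 28, and lay between 0.703 and 0.873 when each strain was left out in turn. The highest of these came without strain 22, the only pool among the 9 highest for miR-205 and not among the 9 highest for miR-203.

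**Figure D2:**
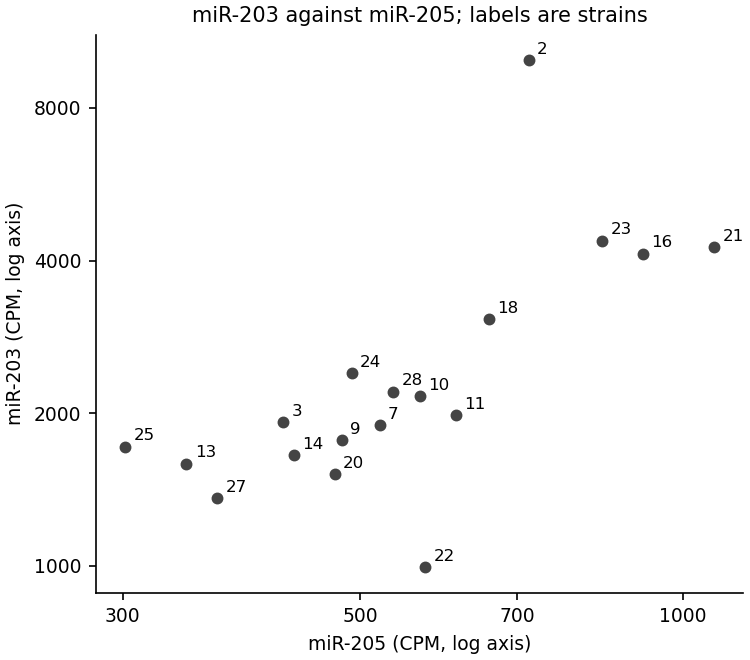
miR-203 against miR-205 (CPM, log axes), 1 point per strain pool with its strain number. Strains 16, 18, 21 and 23 lie at the upper end of both axes, strain 2 above the other pools and strain 22 below them.

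Read ratios within a library show the same 2 departures without any scaling. In 16 strains there were between 3.20 (strain 20) and 5.70 reads of miR-203 (strain 25) for each read of miR-205, and the panel median was 4.04. Strain 2 had 13.8, from 124943 reads of miR-203 and 9032 of miR-205. Strain 22 had 1.73, from 8318 and 4811 reads. The ratio in strain 2 thus lay over the other pools by far more than its counting interval of 13.5 to 14.1, and that in strain 22 below them (1.67 to 1.79). No second pool of either strain was used here.

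The other arm of the Mir203 hairpin, miR-203*, is counted from reads of its own. It averaged 7.11 ± 4.48 CPM (SD, n = 18), from 19 to 271 reads per library, and so fell under the 10 CPM used for the tests across all miRNAs. miR-203* was highest in strain 2, at 21.5 CPM from 271 reads, and the next were strains 16 (12.3 CPM), 23 (10.3 CPM), 24 (10.04 CPM) and 21 (9.61 CPM). The lowest were strains 14 (2.83 CPM) and 22 (3.10 CPM). Strain 2 therefore stood apart in both arms. The other 16 steps in the order of miR-203* overlapped within counting error, so the place of strain 22 there is not settled. Over the 18 strains miR-203* followed miR-203 with a rho of 0.736 (permutation p = 0.00079, adjusted p = 0.00118) and an r of 0.871 (permutation p = 3e-05), and without strains 2 and 23 rho was 0.629 (permutation p = 0.0110) and r was 0.741. With miR-205 its rho was 0.496 (permutation p = 0.0379) and its r was 0.531 (permutation p = 0.0232), and rho was 0.503 without strains 21 and 25 (permutation p = 0.0502). Whether the relations of miR-203* with miR-203 and with miR-205 differ was not tested. There were 225 (strain 27) to 602 reads (strain 10) of miR-203 for each read of miR-203*, with a median of 366. In strain 2 there were 461 (interval 409 to 519) and in strain 22 there were 320 (interval 218 to 469), both inside the range of the other pools. No row for the other arm of Mir205 was used here.

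**Figure D3:**
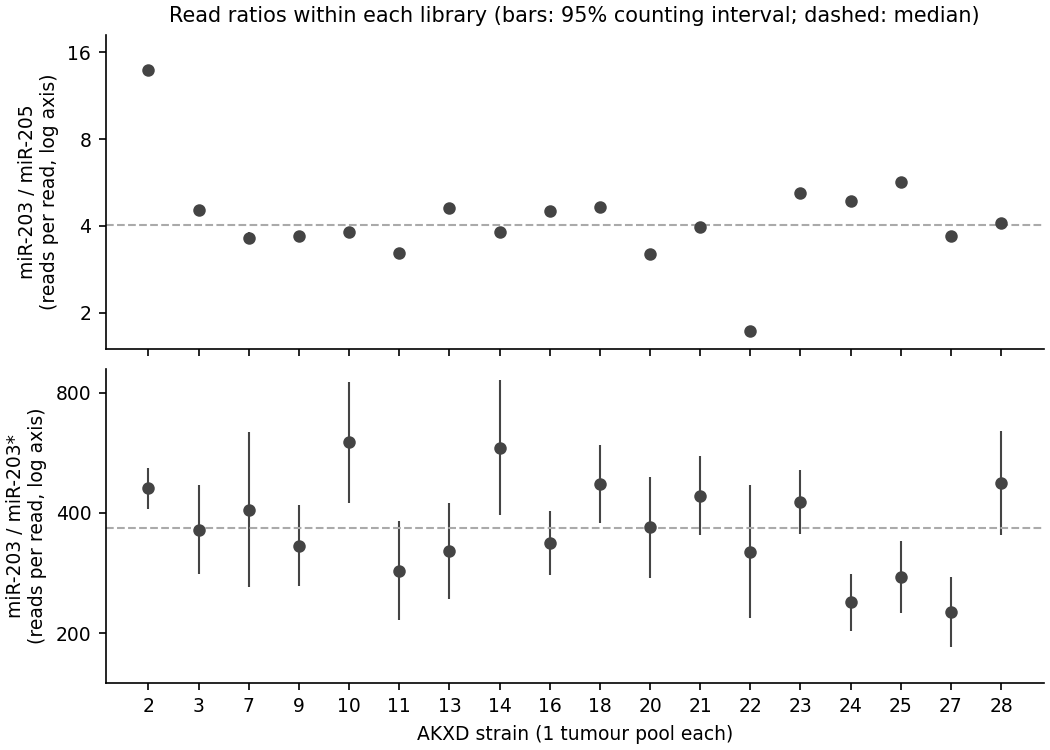
Reads of miR-203 per read of miR-205 (top) and per read of miR-203* (bottom) in each strain pool, on log axes, with 95% counting intervals and a dashed line at the panel median. Strains 2 (13.8) and 22 (1.73) leave the range of 3.20 to 5.70 in the upper panel but not the range of the lower one.

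Technical measures of the libraries were set against both members. miR-205 was higher in the libraries with fewer reads, with a rho of -0.544 with total reads (permutation p = 0.0204, adjusted over 6 relations p = 0.122) and an r of -0.484 (permutation p = 0.0410, adjusted p = 0.246). Without strains 7 and 28, r was -0.647. For miR-203 the rho with total reads was -0.290 (permutation p = 0.240, adjusted p = 0.288) and the r was -0.0708. The rho with the first principal component was 0.484 for miR-205 (permutation p = 0.0436, adjusted p = 0.131) and 0.296 for miR-203 (permutation p = 0.231, adjusted p = 0.288), with an r of 0.336 and 0.232. None of the 6 passed after adjustment. With log2 total reads removed from both members, a choice made after the data had been seen, their rho was 0.723 (permutation p = 0.00104), and with the first principal component removed it was 0.686 (permutation p = 0.0025). No batch is named in the labels, and within-batch values are therefore lacking.

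Each member was then compared with the 280 other tested miRNAs by Spearman rho, with Benjamini-Hochberg adjustment of permutation p-values over all 280. For miR-203, 0 of 280 passed an adjusted p of 0.05, which is 0% of the background, and 13 had an unadjusted p under 0.05 (4.64%). By Pearson r the number was also 0. miR-205 was first among the 280 for miR-203, at rho 0.750 with an adjusted p of 0.171. For miR-205, 4 of 280 passed (1.43%), 2 with a positive rho (0.714%) and 2 with a negative one (0.714%), and 48 had an unadjusted p under 0.05 (17.1%). By Pearson r, 7 passed (2.5%). miR-203 and miR-744 were the positive pair and miR-200b and miR-1839-5p the negative pair. All 4 had the same adjusted p of 0.0462, whose resampling error is 0.00568, so their side of the threshold is not settled by these resamples. All 4 were called again without strain 28, and between 0 and 2 were made when any other strain was left out. No call was left without strains 10, 13, 14, 20 and 28, where 53 miRNAs had an unadjusted p under 0.05.

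The miRNAs that came with miR-205 are shown by sequence, the seed in capitals, beside the rest of the miR-200 family grouped by seed (RefSeq, GRCm38.p6).
miR-744-5p: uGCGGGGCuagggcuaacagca
miR-1839-5p: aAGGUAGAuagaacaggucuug
miR-200b-3p: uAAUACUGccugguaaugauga
miR-200c-3p: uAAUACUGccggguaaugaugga
miR-429-3p: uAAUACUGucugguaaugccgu
miR-200a-3p: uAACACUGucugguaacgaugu
miR-141-3p: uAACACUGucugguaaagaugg
miR-200b, miR-200c and miR-429 share the seed AAUACUG, and miR-200a and miR-141 share AACACUG. Mir200b, Mir200a and Mir429 lie together on chromosome 4, and Mir200c and Mir141 on chromosome 6. None of these seeds equals that of miR-203 or miR-205.

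miR-200b, an epithelial miRNA that represses Zeb1 and Zeb2, was lower where miR-205 was higher under trimmed-mean scaling. It lay at 3086 CPM in strain 16, at a median of 4614 CPM and at 6638 CPM in strain 25, and the 4 strains highest in miR-205 were the 4 lowest in miR-200b. Its rho with miR-205 was -0.775 (permutation p = 0.00029, adjusted p = 0.0462) and its r was -0.817 (permutation p = 6e-05). Without strains 21 and 25, the farthest from the median of miR-205, rho was -0.682 and r was -0.746. This direction depends on the scaling, since with total reads alone rho was 0.0588, while it was -0.684 with upper-quartile and -0.662 with median-of-ratios scaling. The adjusted p passed 0.05 with neither upper quartiles (0.221) nor the median of ratios (0.162). It was 0.0996 when rows identical in every library were all counted, a choice made after the data had been seen.

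The main arms of the rest of the miR-200 family had the same sign with miR-205 under trimmed-mean scaling. The other arms of these hairpins were split. With miR-205 rho was 0.412 for miR-200a*, 0.135 for miR-141* and -0.523 for miR-200b*. With miR-203 it was 0.408, 0.292 and -0.234, and none of these passed. The values that follow are for the main arms. The Spearman coefficient was -0.606 for miR-429, -0.556 for miR-200c, -0.546 for miR-141 and -0.148 for miR-200a, and of the 5 members only miR-200b passed the test. The median of the 5 was -0.556, beside a median of -0.0588 over all 280. miR-200a thus had the weakest rho although it lies in the same cluster as miR-200b, and the 3 members with the seed AAUACUG had the 3 lowest rho, though a difference between the seed groups was not tested. With total reads alone, where the median over all 280 moved to 0.379, the family median was -0.0671 and 3 of 5 members were below 0. Near-identical members such as miR-200b, miR-200c and miR-429 could share reads, and that was not tested. With miR-203, 4 of 5 members had a negative rho (median -0.370, beside -0.00413 over all 280) and 0 of 5 passed. That direction turned with total reads alone, to a median of 0.102 with 3 of 5 members above 0, beside 0.345 over all 280. The summed level of the family lay between 28510.3 CPM (strain 16) and 54710.3 CPM (strain 25). With the family mean removed from both members by regression, the rho between miR-203 and miR-205 was 0.763 (permutation p = 0.00049).

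miR-1839-5p lay between 294 CPM in strain 21 and 698 CPM in strain 25, with a median of 479 CPM. Its rho with miR-205 was -0.746 (permutation p = 0.00066, adjusted p = 0.0462) and its r was -0.774 (permutation p = 0.00021), and without strains 21 and 25 rho was -0.638 and r was -0.599. Its rho was -0.0155 with total reads alone. Its call was also lost with upper quartiles (rho -0.604, adjusted p = 0.323) and with the median of ratios (rho -0.655, adjusted p = 0.162). miR-744 lay between 107 CPM in strain 25 and 284 CPM in strain 16, with a median of 183 CPM. Its rho with miR-205 was 0.750 (permutation p = 0.00054, adjusted p = 0.0462) and its r was 0.707 (permutation p = 0.00106), and without strains 21 and 25 rho was 0.712 and r was 0.67. Its rho was 0.792 with total reads alone (adjusted p = 0.00409). Its call was lost with upper quartiles (rho 0.728, adjusted p = 0.130) and with the median of ratios (rho 0.746, adjusted p = 0.0840). With log2 total reads removed its rho was 0.645 (adjusted p = 0.309). Strain 25 was lowest of all for both miR-205 and miR-744 and highest for both miR-200b and miR-1839-5p.

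**Figure D4:**
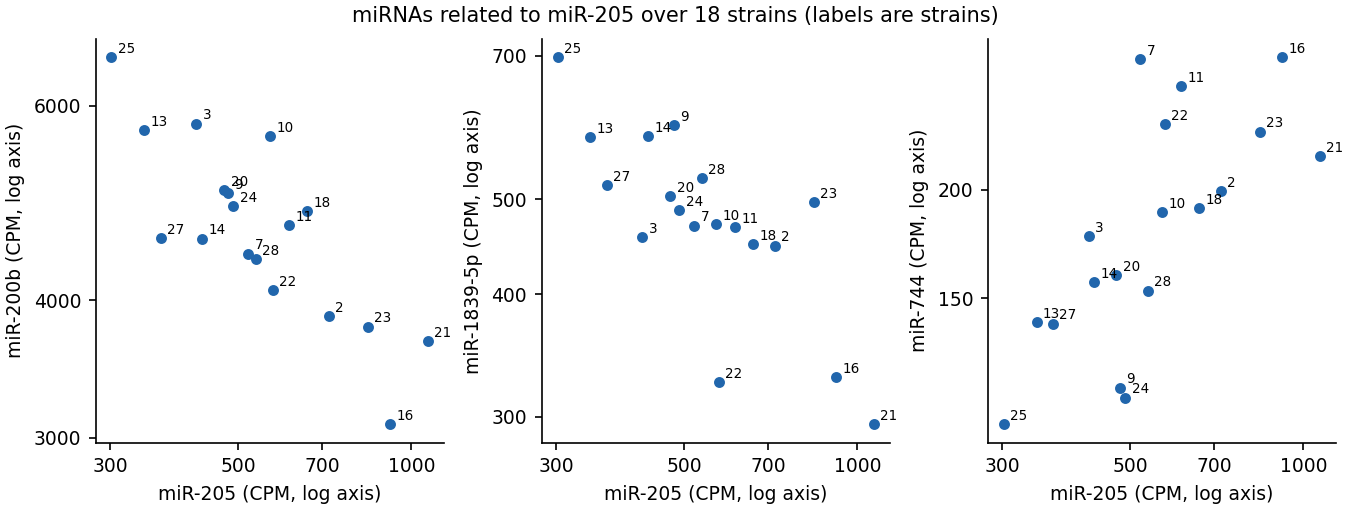
miR-200b, miR-1839-5p and miR-744 against miR-205 (CPM, log axes), 1 point per strain pool with its strain number. miR-200b and miR-1839-5p fall along the miR-205 axis (rho -0.775 and -0.746) and miR-744 climbs along it (rho 0.750) under the trimmed-mean scaling plotted. With total reads alone rho was 0.0588 for miR-200b and -0.0155 for miR-1839-5p.

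Beyond these, the 8 miRNAs most like miR-203 were miR-205, miR-709 (0.608), miR-92a of the miR-17-92 cluster (0.581), miR-181b (0.575), the hypoxia-induced miR-210 (0.571), miR-455* (0.542), miR-872* (0.538) and miR-149 (0.472), by rho over 18 strains. Apart from miR-205, the lowest adjusted p of these was 0.591. The lowest level of miR-210 was 69.6 CPM (strain 14) and the highest 676 CPM (strain 16), and its r with miR-203 was 0.684 (permutation p = 0.00189, adjusted p = 0.176). The 8 most like miR-205 were miR-744, miR-203, miR-434-3p (0.643), miR-149 (0.622), miR-127* (0.618), miR-92a (0.614), miR-872* (0.600) and miR-709 (0.593). The lists share miR-92a, miR-149, miR-709 and miR-872*, which is 4 of 8 in each. Because the members themselves vary together over these pools, some overlap is built in, and the size of the overlap was not tested. miR-709 rests on few reads, with a median of 4.52 CPM, but 65.0 CPM in strain 21 and 61.4 CPM in strain 16. Its mean of 11.7 CPM passed the filter of 10 CPM only through these strains, which are the highest in miR-205. Its place in both lists is therefore no support for a relation. The same holds for its r with miR-205 (adjusted permutation p = 0.0476). At the other end, miR-26a had the lowest rho with miR-203 (-0.622, adjusted p = 0.591) and was also among the 4 lowest with miR-205 (-0.674, adjusted p = 0.136). miR-26b (-0.602), miR-214 (-0.534) and miR-672 (-0.511) completed the 4 for miR-203, and let-7d (-0.676) with miR-200b and miR-1839-5p those for miR-205.

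The same tests were read for lists of miRNAs that mark other cells of a tumour. Outside the miR-200 family, 0 members of the other 12 lists passed with either member under trimmed-mean scaling. With total reads alone, where 57 of 280 miRNAs passed with miR-205 (20.4%) and 6 with miR-203 (2.14%), miR-221 (rho 0.600, adjusted p = 0.0495) and miR-145 (rho 0.618, adjusted p = 0.0418) passed with miR-205, and no list member passed with miR-203. Among other miRNAs of surface or stratified epithelium, miR-31, of hair follicle and inflamed epidermis, lay between 499 CPM (strain 18) and 2103 CPM (strain 28). Its rho was 0.0155 with miR-203 and -0.290 with miR-205. miR-184, of cornea, had rho of -0.391 with miR-203 and -0.133 with miR-205. With total reads alone the median of these 2 was -0.251 with miR-203 and -0.269 with miR-205, against the direction of most of the 280. The lower of the 2 with miR-203, at -0.600, was the lowest rho of all 280 in that setting. miR-135b was in 2 lists and was too low to test, with a mean of 1.51 CPM. Among miRNAs raised in basal-like breast carcinoma, miR-221 had rho of 0.309 with miR-203 and 0.304 with miR-205, miR-18a 0.290 and 0.203, miR-222 0.0279 and -0.224, and miR-9 -0.443 and -0.437. With total reads alone the median of these 4 was 0.528 with miR-203 and 0.482 with miR-205, beside 0.345 and 0.379 over all 280. The label of the pair as basal epithelial comes from what is known of miR-205, and these lists were not a test of it. For miR-203 the label is loose, since in skin it appears as keratinocytes leave the basal layer.

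miR-143 and miR-145, of myoepithelium and smooth muscle, had rho of -0.0960 and 0.0547 with miR-203 and of 0.0237 and 0.253 with miR-205. With total reads alone their median was 0.187 with miR-203 and 0.378 with miR-205. miR-375, of luminal epithelium, lay between 45.1 CPM (strain 25) and 382 CPM (strain 22), with rho of -0.112 and 0.174. With total reads alone its rho was 0.255 with miR-203 and 0.529 with miR-205. The miR-183 cluster had a median rho of -0.121 with miR-203 (0.0630 with total reads alone) and -0.410 with miR-205 (-0.0609), with 3 of 3 members below 0 for both under trimmed-mean scaling. miR-126-3p of endothelium had rho of -0.364 and -0.470, but miR-126-5p of the same hairpin had 0.0423 and 0.0898. miR-214 of mesenchyme had rho of -0.534 and -0.437 at a mean of 43.1 CPM. The more abundant miR-199a-3p, at a mean of 765 CPM, had 0.0464 and -0.0279. With total reads alone the list medians were -0.00722 and 0.121 for endothelium and 0.0908 and 0.147 for mesenchyme. The skeletal muscle list, with sums between 22468.5 CPM (strain 9) and 303146 CPM (strain 14), had a median rho of 0.0165 with miR-203 and 0.111 with miR-205. For the leukocyte list the lowest sum was 1573 CPM (strain 10) and the highest 18250.2 CPM (strain 27), with a median rho of -0.0877 with miR-203 and -0.0836 with miR-205. These medians turned to 0.104 and 0.222 with total reads alone, with 5 of 5 members above 0 for both. In that setting 233 of all 280 miRNAs were above 0 with miR-203 and 220 with miR-205. Their medians were 0.345 and 0.379, higher than those of the leukocyte list and of the miR-183 cluster. For the erythroid list the sums lay between 207 CPM (strain 9) and 808 CPM (strain 14), with a median rho of -0.0939 and -0.179. With total reads alone these medians turned to 0.0918 and 0.141, again below those over all 280. Liver miR-122 lay between 1.56 CPM (strain 21) and 375 CPM (strain 14), with rho of -0.125 and -0.354. In the miR-34 family, which p63 represses in keratinocytes, miR-34a had rho of 0.125 and -0.0402, and miR-34c 0.0258 and -0.0258. With total reads alone their median was 0.356 with miR-203 and 0.377 with miR-205. No measured member of these lists was at 0 in any library. Under trimmed-mean scaling 3 of the 13 lists had a median rho above 0 with miR-203 and 3 with miR-205, and with total reads alone 9 of 13 did with each. No relation in this paragraph passed after adjustment over 280 under trimmed-mean scaling, although miR-214 with miR-203 had an unadjusted permutation p of 0.0242. What size of rho 18 pools could detect was not computed, and the absence of a relation is not shown.

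**Figure D5:**
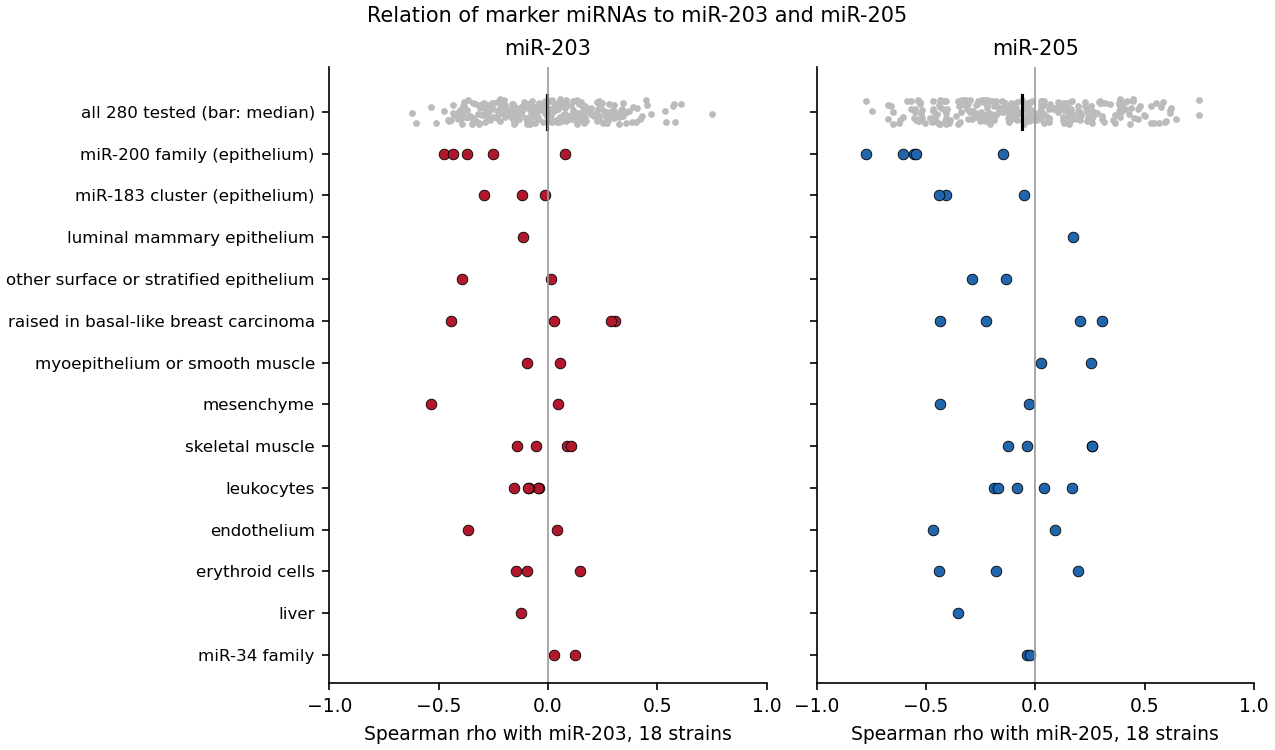
Spearman rho over 18 strains of each tested list member with miR-203 (left) and miR-205 (right), with all 280 tested miRNAs in grey at the top and a bar at their median. The miR-200 family lies farthest to the left for miR-205 (median -0.556), followed by the miR-183 cluster (median -0.410) and liver miR-122 (-0.354). With total reads alone, not plotted, the family median was -0.0671.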

How the data were processed

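Per the labels, RNA of frozen tumours was isolated with the mirVana kit, and per the series' design text small RNA was read on an Illumina Genome Analyzer IIx. The deposited table gives log2 values to 2 decimals, and per the submitters' processing notes BWA and mm9 were used, without version or role; the sources used here do not state counter, annotation or filters. Raised as a power of 2, each deposited log2 value gives whole reads times a constant per library (0.999 to 1.39), which held for 100% of 3818 values up to 50 reads within 0.006 log2. A deposited value of 0 was read as no reads, which in strain 25 (constant 0.999) cannot be told from 1 read. Rows identical in every library were counted once (571 distinct rows). Large read numbers carry the rounding of the deposited decimals. Scaling was by trimmed mean of M values, trimming 30% by ratio and 5% by abundance. Levels were divided by the factor, whose log2 was -0.58 in strain 14 and 0.74 in strain 28. Against totals alone, values thus rose most in strain 14 and fell most in strain 28. The 281 rows averaging 10 CPM or more were compared as log2(CPM + 1), whose pseudocount understates changes of low miRNAs. Correlations used two-sided permutation tests with 100000 resamples, Benjamini-Hochberg adjustment and a threshold of 0.05. They were also run on simulated data with planted relations stronger than those called here, which does not show how weaker ones fare. The members, the 13 lists and the tests were chosen with earlier results of these data known. Other miRNAs were named as the 8 highest and 4 lowest by rho for each member, with the other hairpin arms and the list members; the tests of miR-203* were added later. No measured miRNA gene lies within 50 kb of either member. Python 3.11.15, numpy 2.4.6, pandas 2.3.3, scipy 1.17.1 and matplotlib 3.10.9 were used.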

Additional observations from a re-analysis of the deposited data

How the results depend on the processing

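The relation of miR-203 with miR-205 kept its sign and passed its own permutation test in all 9 other settings tried (rho or r of 0.622 to 0.829) and without each strain in turn (0.703 to 0.873). The highest level over the lowest was 9.35 to 11.2 for miR-203 and 3.22 to 4.57 for miR-205 in other settings, and 4.41 to 10.0 and 3.04 to 3.54 without each strain. The number of miRNAs related to miR-205, 4 in the analysis reported, was 57 with total reads alone, 0 with upper quartiles, 1 with the median of ratios, 0 without strains 10, 13, 14, 20 and 28, 0 with no filter on the mean, 7 by Pearson r, 14 with the first principal component removed, 0 with log2 total reads removed, and 0 to 4 without each strain. For miR-203, with 0, it was 6 with total reads alone and 0 to 1 without each strain. The rho of miR-205 with miR-200b turned to 0.0588 with total reads alone. The cause of these changes was not tested, apart from the larger number of rows adjusted over with no filter (570). No paired analysis was possible because each strain has 1 library. Counting error was small for either member, with at least 2134 reads per library, but not for miR-203*. miR-205 was still higher in libraries with fewer reads (rho -0.544, permutation p = 0.0204, adjusted p = 0.122), and the reason was not tested. One pool per strain leaves strain and pool differences inseparable.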
